A study of Mus musculus with 12 samples.

Results

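Por, Alas1, Nr1i2, Nr1i3, Ahr, Arnt and Rxra were followed in RNA-seq of mouse liver, with every deposited row that carries one of these symbols. They are 7 of the 22322 gene symbols and 24 of the 46585 transcript rows in the tables, and all 7 passed the filter on low values described below. The study is about circadian transcription of miRNA genes in mouse liver, and these libraries set livers with a liver-specific knockout of Bmal1 beside wild-type livers. Bmal1, named Arntl in the deposited rows, encodes the clock transcription factor BMAL1. Livers came from mice labelled as C57BL/6 and 8 weeks old, while the methods state males on a C57BL/6J background and an age range that begins at the labelled age. Wild-type (WT) mice carried the floxed Bmal1 alleles without a stated CRE, and liver-specific knockout (KO) mice carried the same floxed alleles with a CRE under a liver-specific promoter that the sources used here do not name. Each genotype was collected at circadian time 0 (CT0, when lights would come on) and at circadian time 12 (CT12). There were 3 livers per genotype and time. The general methods state complete darkness for the mice in the days before collection, and that the RNA of these livers was provided by another researcher. Labels mix circadian time (titles) with zeitgeber time (other fields), and circadian time is used here. The methods state 3 mice per genotype and time and the treatment text in the labels fewer, so it is not certain that every library is a separate mouse. The p-values set group differences against the variation between libraries, and would be too small if libraries shared a mouse.

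Cytochrome P450 enzymes of the hepatocyte endoplasmic reticulum oxidise drugs, steroids and other foreign or endogenous compounds. Each P450 carries heme, and ALAS1 catalyses the first and rate-limiting step of hepatic heme synthesis. P450s also need electrons, which POR (cytochrome P450 oxidoreductase) passes to them from NADPH. Transcription of P450 genes is set by ligand-sensing receptors. CAR (encoded by Nr1i3) and PXR (Nr1i2) are nuclear receptors that bind DNA as dimers with RXRα (Rxra), and AHR (Ahr) is a bHLH-PAS protein that binds DNA with ARNT (Arnt), a relative of BMAL1. PXR and CAR are also known to act on Alas1 and Por, and the PAR bZIP factors DBP, TEF and HLF are known to act on the CAR gene.

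Promoters of 6 of the 7 genes were found in RefSeq on GRCm38.p6, as 8 windows of 300 bases that run from 250 before to 50 after the start site. Ahr had no entry. Windows were taken by gene symbol and were not matched to the start of a transcript row. The Por rows start at several positions of build mm9, from 136145903 for the row tested below to 136201598. A window is shown for each of the 4 genes that passed as higher at CT12 than at CT0 in WT, in the test described below. Matches to the searched motifs are in capitals and the rest in lower case, 5′ to 3′ on the strand of the gene. Por lies at chr5:135688895-135689194 on the plus strand, Alas1 at chr9:106247681-106247980 on the minus strand, Nr1i2 at chr16:38294775-38295074 on the minus strand and Nr1i3 at chr1:171213720-171214019 on the plus strand.
Por: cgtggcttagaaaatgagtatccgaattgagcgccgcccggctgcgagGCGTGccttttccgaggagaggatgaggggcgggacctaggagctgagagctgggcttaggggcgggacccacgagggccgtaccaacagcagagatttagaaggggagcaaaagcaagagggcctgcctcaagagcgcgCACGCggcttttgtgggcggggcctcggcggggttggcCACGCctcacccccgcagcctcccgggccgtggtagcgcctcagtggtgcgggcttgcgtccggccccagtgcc
Alas1: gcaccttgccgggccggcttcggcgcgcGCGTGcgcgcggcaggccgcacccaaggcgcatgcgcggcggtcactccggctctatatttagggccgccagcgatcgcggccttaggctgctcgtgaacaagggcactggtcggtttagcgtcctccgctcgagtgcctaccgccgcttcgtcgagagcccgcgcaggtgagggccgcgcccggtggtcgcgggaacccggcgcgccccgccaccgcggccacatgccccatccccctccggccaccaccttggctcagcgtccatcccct
Nr1i2: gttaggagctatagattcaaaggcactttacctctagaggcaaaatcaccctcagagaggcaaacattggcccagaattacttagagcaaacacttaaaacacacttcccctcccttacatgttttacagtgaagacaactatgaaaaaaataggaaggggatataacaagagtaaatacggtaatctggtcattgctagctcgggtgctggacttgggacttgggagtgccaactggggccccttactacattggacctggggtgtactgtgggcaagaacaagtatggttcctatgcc
Nr1i3: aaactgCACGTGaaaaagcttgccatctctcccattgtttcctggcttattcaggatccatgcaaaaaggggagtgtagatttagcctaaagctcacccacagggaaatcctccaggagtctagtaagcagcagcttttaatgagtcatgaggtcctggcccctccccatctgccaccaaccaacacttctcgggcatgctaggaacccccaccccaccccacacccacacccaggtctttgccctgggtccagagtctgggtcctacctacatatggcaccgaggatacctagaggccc
The capitals in the Nr1i3 window mark the E-box CACGTG, the palindrome that CLOCK and BMAL1 are known to bind, which starts 244 bases before the start site. It was the only match to this E-box in the 8 windows, and 7.15% of all 32851 RefSeq promoter windows of the same length hold it. The capitals in the Por and Alas1 windows mark GCGTG, the core of the element that AHR and ARNT are known to bind, read on both strands. It is a short and common word, present in 32.4% of all windows. The Por window holds 3 such matches, starting 202, 62 and 24 bases before the start site, and the Alas1 window holds 1, which starts 222 bases before. A second RefSeq window of Alas1 overlaps the printed window and contains the same GCGTG. No searched motif matched in the Nr1i2 window. Outside the printed set, the Arnt window held GCGTG and 1 of 2 Rxra windows held AGGTCA. That word was searched as the core alone of the element bound by ROR and REV-ERB receptors. It is not particular to that element, and 16.3% of all windows contain it. The E-box-like CACGTT (4.68% of all windows), the D-box words TTATGCAA (0.74%) and TTACGTAA (0.12%) and the AGTTCA, a nuclear receptor site (13.99%), all read on both strands, matched in none of the 8 windows. No matches overlapped each other. These matches describe the letters of each window and say nothing of binding.

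Levels are given in RPKM, reads scaled by transcript length and by the mapped reads of the library, as deposited. A gene is represented by the transcript row with its highest mean, and tests used limma on log2(RPKM + 1) over the 10799 genes that reached a mean of 1 RPKM in at least 1 group, with Benjamini-Hochberg adjustment over all of them and a threshold of 0.05. Differences are on that log2 scale, where adding 1 understates the change of low genes, strongly for those near or below 1 RPKM. The steps between low values put the depth at 11460000 to 19020000 reads per library. Arntl itself, the targeted gene, was at 16.3, 15.7 and 15.7 RPKM in WT at CT0 and at 5.91, 5.73 and 7.45 RPKM in KO. At CT12 it was at 1.26, 0.68 and 1.21 RPKM in WT and at 4.37, 3.59 and 4.01 RPKM in KO. Every KO liver was therefore below every WT liver at CT0 and above every WT liver at CT12. The row counts reads over the whole transcript, including exons outside the deleted part, so its level is not a measure of the deletion and by itself checks the labels only in part.

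The summed level of 6 hepatocyte markers was lower in KO than in WT, at 28990 to 35350 RPKM against 46170 to 52430 at CT0 and at 26820 to 30720 against 38050 to 46120 at CT12. Most of that sum was albumin (Alb), at 36059 ± 2873 RPKM (SD, n = 3) in WT and 19009 ± 2017 in KO at CT0, and at 30907 ± 3915 and 14868 ± 1301 at CT12. Of the 6 markers, Alb passed the test as lower in KO at both times and Fgb, a fibrinogen gene, as higher at CT12. The sum of 5 cholangiocyte markers was higher in KO, 93.1 to 152 RPKM against 48.6 to 64.8 at CT0 and 88.4 to 124 against 27.2 to 49.97 at CT12, almost all of it Spp1, while the group means of the defining markers Krt19, Krt7, Epcam and Sox9 were at most 1.26 RPKM. In KO at CT0 Krt19 was at 1.26 RPKM and Epcam at 1.14, both above their WT means, and neither passed the test. Krt7 went the other way, at 0.554 RPKM in KO and 1.06 in WT at CT0, and did not pass either. Sox9, at 0.916 RPKM in KO and 0.737 in WT at CT0, fell under the filter on low values. At CT12 Sox9 was at 0.815 ± 0.123 RPKM (SD, n = 3) in KO and 0.228 ± 0.077 in WT, and Epcam at 0.488 and 0.376. Krt19 and Krt7 were lower in KO than in WT there, at 0.379 against 0.439 RPKM and 0.0740 against 0.219. Spp1 passed in limma as higher in KO at both times, by 1.16 at CT0 (adjusted p = 0.0238) and 1.56 at CT12 (0.000751). Over time in WT the lowest and the highest sum were lower at CT12 for each of the 5 marker lists. The endothelial sum was 78.8 to 97.4 RPKM at CT0 and 52.7 to 62.8 at CT12, the stellate sum 121 to 159 and 89.2 to 103, and the Kupffer sum 140.0 to 186 and 87.6 to 134, without overlap for any of these 3 lists. In whole liver, fewer cells of a type and less RNA per cell cannot be told apart. The part of these shifts in the results that follow was not tested. The genotype differences of Por and Nr1i3 at CT12, described below, stayed past the threshold after quantile normalization and after median centring. Both adjust whole libraries and cannot remove a shift in cell types or in RNA per cell, so they do not bear on the marker shifts.

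The order of levels changed with time and genotype. In WT at CT12 it was Alas1, Por, Nr1i3, Rxra, Nr1i2, Arnt and Ahr, from 572 RPKM down to 8.999, and no 2 neighbours in this order overlapped between their 3 livers. In WT at CT0 Nr1i3 led at 78.4 RPKM, followed by Rxra, Por and Alas1 at 36.0, each overlapping the next, and then by Nr1i2, Arnt and Ahr without overlap. In KO at CT0 Alas1, Rxra, Nr1i3 and Por lay between 51.6 and 42.0 RPKM and overlapped, and in KO at CT12 Alas1 was highest at 265 RPKM while Nr1i3, Rxra and Por lay between 72.3 and 54.0 and overlapped. These are levels per length of rows that differ in length.

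**Figure D1:**
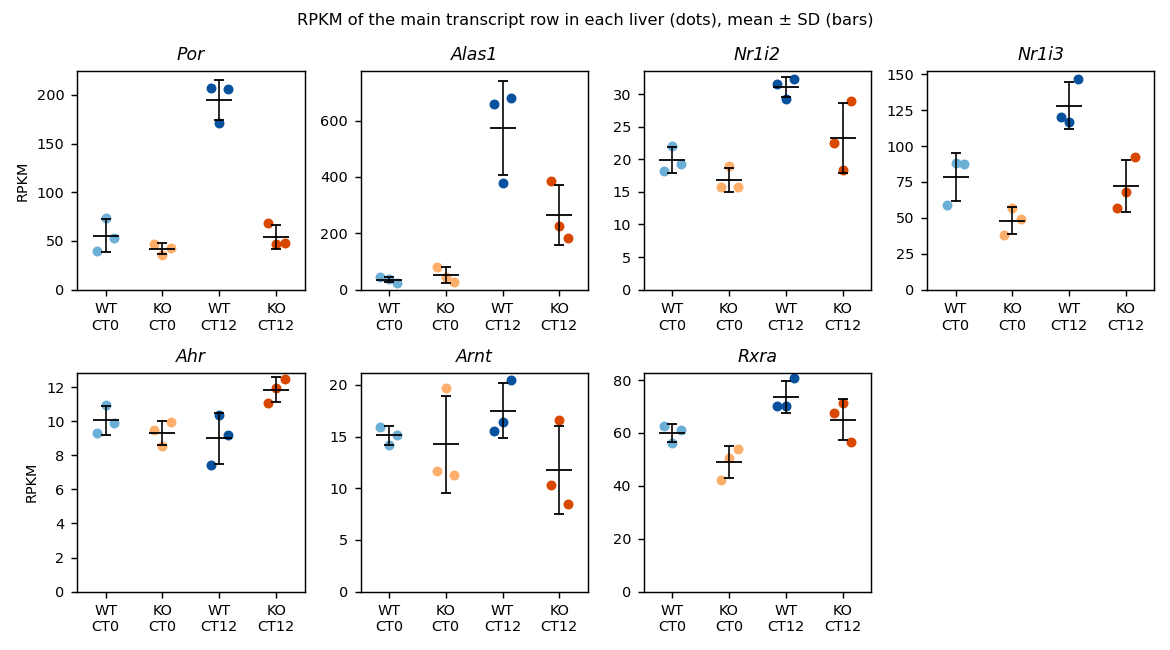
RPKM of the main transcript row (vertical axis, starting at 0) of the 7 genes in each liver (dots), with the mean and SD of 3 livers (bars), for WT and KO at CT0 and CT12. Por and Alas1 are highest in WT at CT12, with Por at 171 to 207 RPKM there and at or below 73.8 RPKM in every other liver.

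Between genotypes at CT12, Por and Nr1i3 were lower in KO. They are 2 of the 7 genes, while 10.5% of all tested genes passed the test in this comparison, 6.97% higher and 3.49% lower in KO. At CT0 none of the 7 passed in limma, with 2 at an unadjusted p under 0.05 (Nr1i3 and Rxra), and 1.86% of all tested genes passed, 1.02% higher and 0.843% lower. From CT0 to CT12 in WT, 4 of the 7 rose (Por, Alas1, Nr1i2 and Nr1i3), against 11.6% of all tested genes, 3.71% higher and 7.88% lower at CT12. In KO only Alas1 passed, higher at CT12, against 2.43% of all tested genes, 1.1% higher and 1.32% lower. The genotype by time interaction, which compares the KO minus WT difference at CT12 with that at CT0, passed for Por alone, against 1.49% of all tested genes, 1.07% positive and 0.417% negative. The median log2 difference of the 7 genes was -0.23 between genotypes at CT0 and -0.57 at CT12, where all tested genes had medians of 0.011 and 0.08. Over time the median of the 7 was 0.62 in WT and 0.41 in KO, where all tested genes had -0.068 and -0.002. The WT livers at each time serve in several of these comparisons, so the comparisons are not independent of each other.

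**Figure D2:**
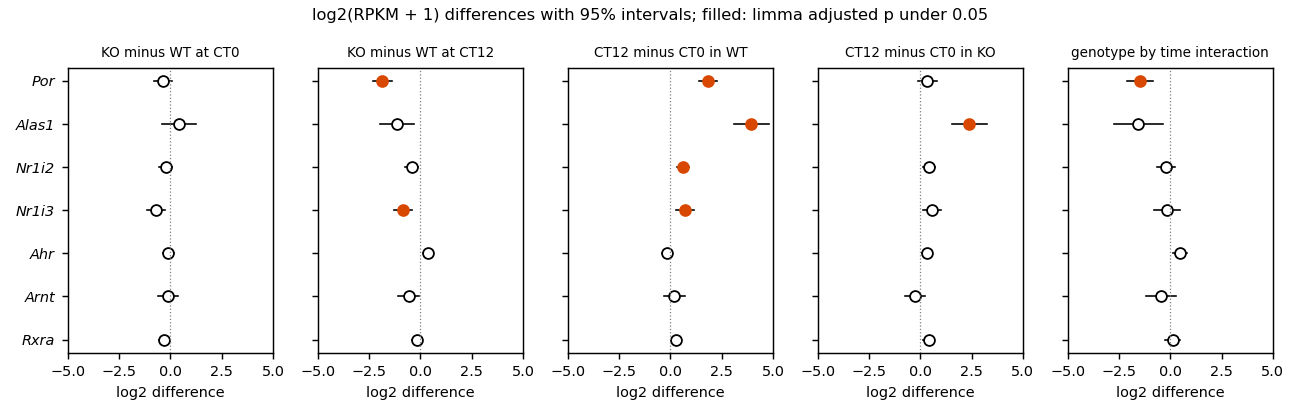
Differences of log2(RPKM + 1) (horizontal axes) of the 7 genes in 5 comparisons, as estimates (circles) with 95% intervals (lines), filled where the limma adjusted p was under 0.05. The filled points are Por and Nr1i3 between genotypes at CT12, Por, Alas1, Nr1i2 and Nr1i3 over time in WT, Alas1 over time in KO and Por for the interaction.

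CAR and PXR are the receptors that respond to the broadest range of drugs. Nr1i3 was at 59.3, 88.5 and 87.4 RPKM in WT at CT0 and at 38.2, 56.6 and 49.4 in KO. At CT12 it was at 121, 117 and 147 RPKM in WT and at 56.8, 68.0 and 92.1 in KO. Every KO liver was below every WT liver of the same time. At CT12 the KO level was 1.77-fold lower, with a log2 difference of -0.84 (SE 0.20) and a limma adjusted p of 0.0219. At CT0 it was 1.63-fold lower, with a log2 difference of -0.69 (SE 0.20) and an adjusted p of 0.126. The genotype differences at the 2 times differed by -0.15 (95% interval -0.78 to 0.48), which did not pass the interaction test (limma adjusted p = 0.891). In WT Nr1i3 rose 1.63-fold from CT0 to CT12, by 0.72 on the log2 scale (SE 0.20, limma adjusted p = 0.0414), without overlap between the times. In KO the CT12 livers also lay above the CT0 livers, with 0.57 (SE 0.20) and a limma adjusted p of 0.155.

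These calls for Nr1i3 lie near the threshold. The CT12 genotype call was lost without WT CT12 replicate 3 (limma adjusted p = 0.0897), without KO CT12 replicate 1 (0.0766) and without KO CT12 replicate 2 (0.0687). The WT time call was lost without any of the 6 WT livers, with limma adjusted p from 0.0612 without WT CT0 replicate 2 to 0.144 without WT CT12 replicate 3, and also without KO CT0 replicate 3 (0.0531) or KO CT12 replicate 2 (0.0550) and with no filter on low values (0.0768). Nr1i3 shares 257 exonic bases with Tomm40l on the opposite strand, and the library kit does not mark strand, so reads there cannot be assigned to either gene. Tomm40l was at 3.42 ± 0.56 RPKM (SD, n = 3) in WT and 7.26 ± 2.06 in KO at CT12.

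Nr1i2, which encodes PXR, was at 18.2, 22.1 and 19.3 RPKM in WT at CT0 and at 31.5, 29.3 and 32.4 at CT12. In KO it was at 15.8, 18.9 and 15.7 RPKM at CT0 and at 22.5, 18.4 and 29.0 at CT12. The WT livers separated fully by time, and Nr1i2 rose 1.56-fold (log2 difference 0.62, SE 0.14, limma adjusted p = 0.0164). In KO the times overlapped, with 0.43 (SE 0.14) and a limma adjusted p of 0.127. The interaction was -0.19 (95% interval -0.63 to 0.24), so the size of the time difference was not shown to depend on genotype. All 3 KO livers at CT12 lay below all 3 WT livers, with a log2 difference of -0.42 (SE 0.14) that did not pass (limma adjusted p = 0.0827). It did pass after quantile normalization (0.0435), after median centring (0.0471) and without KO CT12 replicate 3 (0.0151). The WT time call was lost without WT CT0 replicate 1 (limma adjusted p = 0.0573) or 3 (0.0549) and without WT CT12 replicate 1 (0.0531) or 3 (0.0599).

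Rxra encodes the shared dimer partner of CAR and PXR. It was at 62.8, 56.1 and 61.1 RPKM in WT at CT0 and at 70.1, 70.2 and 80.7 at CT12. In KO it was at 42.2, 50.3 and 54.0 RPKM at CT0 and at 67.5, 71.2 and 56.4 at CT12. The KO livers lay below the WT livers at CT0 and overlapped them at CT12. None of the 5 comparisons of its main row passed the limma test. The genotype difference was -0.30 at CT0 (95% interval -0.55 to -0.047, adjusted p = 0.247) and -0.18 at CT12 (-0.43 to 0.069, adjusted p = 0.366). Over time Rxra differed by 0.29 in WT (SE 0.11, adjusted p = 0.125) and by 0.41 in KO (SE 0.11, adjusted p = 0.0864). With each gene represented by its longest row, the KO time difference was 0.44 and passed (limma adjusted p = 0.0457).

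Ahr encodes the receptor for dioxins and other planar aromatic compounds, and was the lowest of the 7 genes in WT. It was at 9.31, 10.98 and 9.92 RPKM in WT at CT0 and at 7.43, 10.4 and 9.21 at CT12, with overlap. In KO it was at 9.48, 8.56 and 9.95 RPKM at CT0 and at 11.1, 12.0 and 12.5 at CT12, where every liver lay above every KO liver of CT0 and every WT liver of CT12. Ahr was the only 1 of the 7 with a positive genotype difference at CT12, of 0.37 (SE 0.12), which did not pass (limma adjusted p = 0.0629). It passed without WT CT12 replicate 2 (0.0339) and when each gene was represented by its longest row (0.0466), where Ahr keeps its only row and the other genes tested change. The interaction was 0.47 (95% interval 0.12 to 0.83, limma adjusted p = 0.242). Ahr shares 60 exonic bases with Gm17436 on the opposite strand.

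Arnt encodes the dimer partner of AHR. Its main row is a fragment of 378 bases in 5 exons, with 44 to 114 reads per liver, and is the least precise value of the 7. It was at 16.0, 14.2 and 15.2 RPKM in WT at CT0, at 15.6, 16.4 and 20.5 in WT at CT12, at 11.7, 19.7 and 11.3 in KO at CT0 and at 10.3, 16.6 and 8.52 in KO at CT12. Replicate 2 was the highest of the KO livers at both times, and the groups overlapped. The CT12 genotype difference of this row was -0.57 (SE 0.23, limma adjusted p = 0.143), which passed without KO CT12 replicate 2 (0.0345). The longest row of Arnt, with 4325 bases, gave -0.35 with a smaller SE of 0.097 and passed when each gene was represented by its longest row (limma adjusted p = 0.0265). At CT0 the main row gave -0.12 and the longest row 0.16, so the direction there depended on the row.

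Por, the electron donor of the microsomal P450s, had the largest genotype difference of the 7 genes at CT12. It was at 40.1, 73.8 and 52.9 RPKM in WT at CT0 and at 47.1, 35.8 and 43.1 in KO. At CT12 it was at 207, 171 and 206 RPKM in WT and at 68.3, 46.4 and 47.4 in KO. The 3 WT livers of CT12 stood apart from the other 9 livers, which overlapped among themselves. At CT12 the KO mean of 54.0 ± 12.4 RPKM was 3.60-fold below the WT mean of 195 ± 20.8 (SD, n = 3), with a log2 difference of -1.85 (SE 0.21, limma adjusted p = 0.000134). At CT0 the difference was -0.36 (SE 0.21, limma adjusted p = 0.471). Por rose 3.505-fold from CT0 to CT12 in WT (log2 difference 1.83, SE 0.21, limma adjusted p = 0.000192). In KO the time difference was 0.34 (95% interval -0.11 to 0.79, limma adjusted p = 0.385). The interaction was -1.49 (SE 0.29, limma adjusted p = 0.0267). The CT12 genotype call and the WT time call of Por were kept under all 21 alternatives. The interaction call was lost without any of 8 single livers, namely WT CT0 replicates 1 and 3, WT CT12 replicates 1 and 3, KO CT0 replicates 1 and 3 and KO CT12 replicates 2 and 3, with limma adjusted p from 0.0511 to 0.0737, and with no filter on low values (0.0665).

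Alas1 had the largest time difference of the 7 genes in both genotypes. It was at 45.9, 37.2 and 25.0 RPKM in WT at CT0 and at 659, 380 and 679 at CT12. In KO it was at 81.9, 44.8 and 28.1 RPKM at CT0 and at 386, 225 and 183 at CT12. Within each genotype every CT12 liver lay above every CT0 liver. The rise was 15.9-fold in WT (log2 difference 3.95, SE 0.39, limma adjusted p = 6.01e-05) and 5.13-fold in KO (2.39, SE 0.39, limma adjusted p = 0.0116). The KO call was lost when only the KO livers were fitted (limma adjusted p = 0.0604). At CT12 the KO mean of 265 ± 107 RPKM was 2.16-fold below the WT mean of 572 ± 167 (SD, n = 3), with overlap, since the highest KO liver at 386 RPKM exceeded the lowest WT liver at 380. That log2 difference of -1.14 (SE 0.39) did not pass (limma adjusted p = 0.0853), nor did the interaction of -1.55 (95% interval -2.74 to -0.36, limma adjusted p = 0.248). The CT12 genotype difference passed without KO CT12 replicate 1 (limma adjusted p = 0.0490) and without KO CT0 replicate 1 (0.0429). With SDs of 29.1% to 53.3% of the mean, Alas1 was the most variable of the 7 genes in 3 of the 4 groups. Alas1 shares 114 exonic bases with 4930500F10Rik on the opposite strand.

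Rows of a gene that overlap in position can count the same reads and are not independent of each other, and of the Arnt rows the short ones of 378 and 783 bases lie apart. All 5 Por rows were lower in KO at CT12, from -1.89 to -1.85 on the log2 scale, all 5 were higher at CT12 in WT, and all 5 passed the interaction test. They lie on the plus strand of chromosome 5 of mm9, between 136145903 and 136211196, and range from 505 to 2636 bases. All 3 Alas1 rows, on the minus strand of chromosome 9 between 106135786 and 106150457, passed over time in both genotypes. The 3 Nr1i3 rows, on the plus strand of chromosome 1 between 173144101 and 173148976, all passed between genotypes at CT12 and over time in WT. Of the 6 Arnt rows, on the plus strand of chromosome 3 between 95238310 and 95301162, the 2 longest passed between genotypes at CT12. None of the 5 Rxra rows on the plus strand of chromosome 2 passed in limma in any comparison. Over time in each genotype all 5 were at an unadjusted p under 0.05, but these rows overlap in position and are not 5 separate observations. Nr1i2 (minus strand of chromosome 16, 38248409 to 38294910) and Ahr (minus strand of chromosome 12, 36182646 to 36219710) have 1 row each. Of the 24 rows, none passed between genotypes at CT0 in limma (9 at an unadjusted p under 0.05), 10 passed at CT12, 12 passed over time in WT, 3 over time in KO and 5 for the interaction. The shares of all 26512 rows tested that passed were 1.72%, 10.6%, 12.4%, 2.79% and 1.61% in the same order. These are shares at the adjusted threshold, and the share of all rows at the unadjusted p was not counted.

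The ratio of a gene's longest row to its main row was nearly fixed for Alas1, from 0.692 to 0.702 over the 12 livers, and for Nr1i3, from 0.961 to 0.967. For Por it ran from 0.742 to 0.835 and for Rxra from 0.790 to 0.855. For Arnt it ran from 0.429 to 0.722, with 0.476 ± 0.020 in WT and 0.603 ± 0.129 in KO at CT0 (SD, n = 3). Arnt is therefore the gene for which the choice of row matters most.

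**Figure D3:**
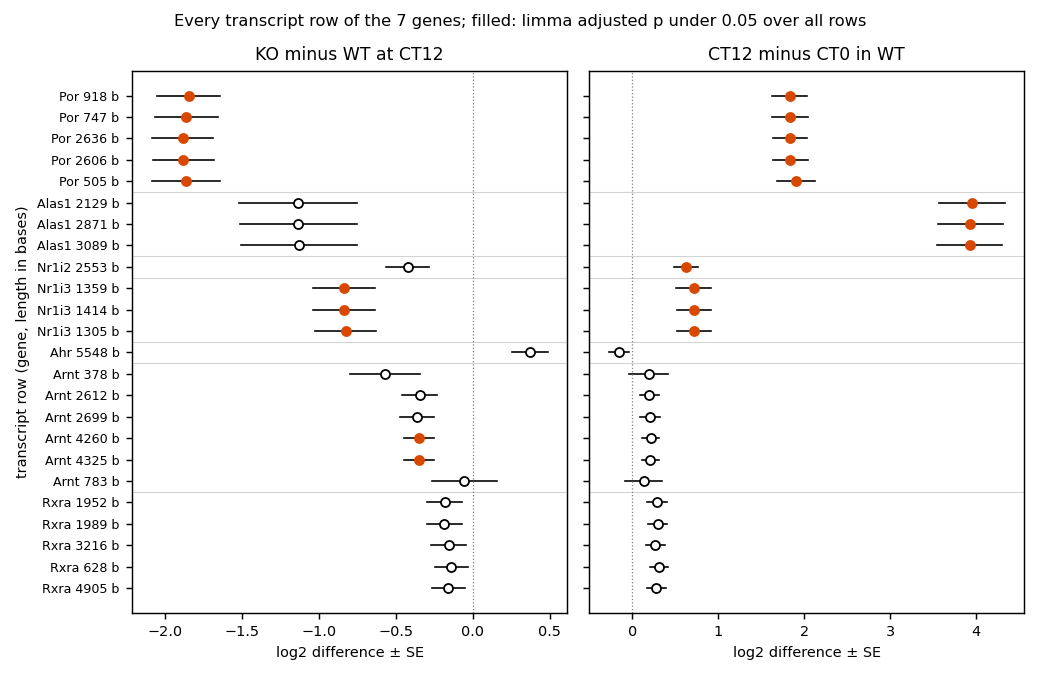
Differences of log2(RPKM + 1) (horizontal axes, with SE) of all 24 transcript rows of the 7 genes, named by gene and length in bases, between genotypes at CT12 (left) and over time in WT (right), filled where the limma adjusted p over all rows was under 0.05. Rows of Por, Alas1 and Nr1i3 lie close together within each gene, while those of Arnt run from -0.57 to -0.05 at the left.

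Genes around these 7 were counted in lists at CT12, KO against WT, where 6.97% of all tested genes were higher and 3.49% lower. Of the 8 other enzymes of heme synthesis, 1 was higher (Uros, uroporphyrinogen III synthase, 0.54, SE 0.13, limma adjusted p = 0.0190), 1 was lower (Fech, ferrochelatase, which inserts iron in the last step, -0.31, SE 0.082, adjusted p = 0.0292) and 6 did not pass, with a list median of 0.054. None of the 8 passed over time in limma, with 4 at an unadjusted p under 0.05 in WT and 2 in KO. The share of all tested genes at that unadjusted p was not counted. Of 4 heme breakdown genes, Hmox1 and Hmox2, the heme oxygenases, were higher (0.47 and 0.56, limma adjusted p = 0.0465 and 0.00489), the biliverdin reductase gene Blvrb was lower (-0.49, adjusted p = 0.00600) and Blvra did not pass, with a list median of 0.15. Of the microsomal electron transfer genes Cyb5b, Cyb5r3 and Pgrmc1, which encode other partners of the P450 system, none passed in limma, also at an unadjusted p under 0.05 (0 of 3), and their median was -0.035. No deposited row carries the symbol Cyb5a, and other names of this gene were not searched.

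Of 9 dimer partners and paralogues tested among 11 listed, Ppara, the fatty acid receptor that also pairs with RXRα, was lower in KO at CT12 (61.4 ± 4.34 RPKM in WT, 29.6 ± 5.91 in KO, log2 difference -1.04, limma adjusted p = 0.000149), Arntl was higher as described, and 7 did not pass (list median -0.086).

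Targets of the receptors did not move in 1 direction. Of 11 CAR and PXR target genes tested among 12 listed, 4 were higher in KO at CT12, 3 were lower and 4 did not pass (list median 0.173, against 0.08 for all tested genes). Among those that passed, the largest differences were those of Cyp2c55 (3.46 ± 1.77 RPKM in WT, 40.6 ± 7.28 in KO, log2 difference 3.30, limma adjusted p = 2.38e-05), Cyp2b10, the classical CAR target (2.09 ± 1.64 RPKM in WT, 12.9 ± 6.93 in KO, 2.187, adjusted p = 0.0130), and Abcb1a, which encodes a drug efflux pump (2.12 ± 0.53 RPKM in WT, 0.438 ± 0.11 in KO, -1.10, adjusted p = 0.000357). Cyp2b9, a close relative of Cyp2b10, was at 17.3 ± 24.8 RPKM in WT and 0.951 ± 1.34 in KO, with a log2 difference of -2.40 (SE 0.86) that did not pass (limma adjusted p = 0.103). At CT0, 4 of the 11 were higher and 1 lower, against 1.02% higher and 0.843% lower of all tested genes. The log2 difference there was 3.36 for Cyp2c55 and 2.57 for Cyp2b10. Cyp2b10 and Cyp2c55 were higher at both times in livers in which the CAR transcript was at a lower mean, a difference that passed only at CT12 for that transcript. At CT12 3 targets were lower, and a link between the CAR transcript and its targets was not tested. Reads of the Cyp2b, Cyp2c and Cyp3a families may be shared among close paralogues, so their values are uncertain. Of 3 AHR target genes tested among 6 listed, Ugt1a6a, a UDP-glucuronosyltransferase, was lower (-0.59, limma adjusted p = 0.00438), Cyp1a2 was at 209 ± 12.7 RPKM in WT and 193 ± 55.2 in KO, and the list median was -0.151. Ugt1a6a shares its last exons with Ugt1a1 of the other list, so the 2 are not separate observations.

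The PAR bZIP factors, clock-controlled activators, were lower in KO at CT12 for 2 of 3 genes. Dbp was at 24.1 ± 8.33 RPKM in WT and 5.35 ± 2.48 in KO (log2 difference -2.004, limma adjusted p = 0.000487), and Tef at 45.7 ± 1.08 and 23.4 ± 2.59 (-0.94, adjusted p = 0.000152). All 3 rose from CT0 to CT12 in WT, as did Por, Alas1, Nr1i2 and Nr1i3, where 3.71% of all tested genes rose. The list median at CT12 between genotypes was -0.943. At CT0 1 of the 3 passed as higher in KO and none as lower (list median 0.401), where 1.02% of all tested genes were higher. The interaction passed as negative for 2 of the 3 (list median -1.888), where 0.417% of all tested genes were negative. In KO 1 of the 3 rose over time, Dbp by 1.19 (limma adjusted p = 0.0416), where 1.1% of all tested genes rose.

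**Figure D4:**
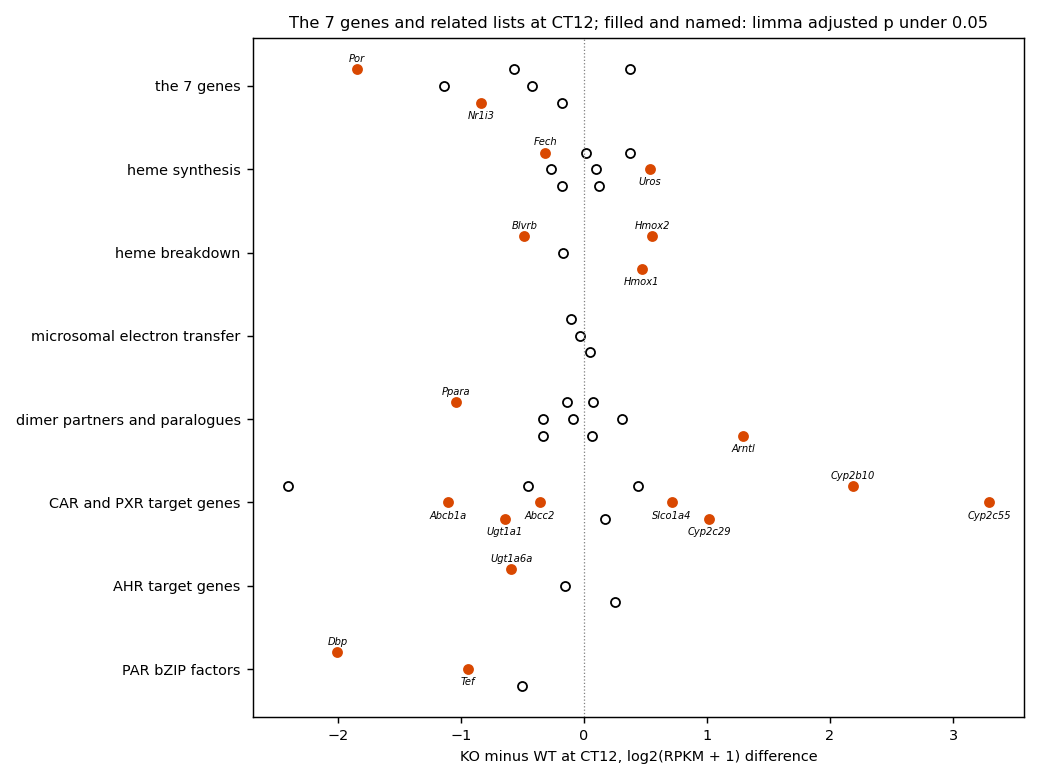
KO minus WT differences of log2(RPKM + 1) at CT12 (horizontal axis) for the 7 genes and 7 related lists (rows), filled and named where the limma adjusted p was under 0.05, with vertical offsets within a row only to separate points. CAR and PXR targets spread to both sides, from Abcb1a at -1.10 to Cyp2c55 at 3.30 among the filled points.

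The genes whose pattern over the 12 livers was most like each of the 7 were found by Pearson r of log2(RPKM + 1). These correlations are descriptions, because the livers fall into 4 groups and the 2 genes compared share libraries and depth. For Por the nearest were Dst (r = 0.965, Spearman rho = 0.811), Homer2 (0.960, 0.755) and Upp2 (0.960, 0.839). For Alas1 they were Usp2 (r = 0.971, rho = 0.930), Amd1 (0.960, 0.867) and Ccrn4l (0.960, 0.888). For Nr1i3 they were Acadl (r = 0.971, rho = 0.972), the heme enzyme gene Fech (0.964, 0.958) and Vnn1 (0.963, 0.930). For Nr1i2 they were Eci2 (r = 0.968, rho = 0.916), Angptl4 (0.951, 0.944) and Pim3 (0.934, 0.888). The likeness was weaker for Rxra, led by Ufsp1 (r = 0.925), for Arnt, led by Nr3c2 (0.926), and for Ahr, led by Usp20 (0.9001). Among the 7, r was highest between Nr1i2 and Nr1i3 at 0.894, and the lowest was that of Ahr and Arnt at -0.525.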

How the data were processed

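The 12 liver RNA libraries (Illumina TruSeq RNA v2, not strand-marking) were quantified by the authors and deposited as RPKM per transcript. The submitters' processing notes name TopHat2, bedtools 2.19.1 and mm9. The annotation release, and how reads shared by transcripts were counted, are not given in the sources used here. Summed row reads were 1.448 to 1.585 times the reads of a library, so reads are counted in more than 1 row. Depth was recovered from the steps between low values (95.47% to 96.38% on a step, tolerance 0.05) with transcript lengths from the mm9 GENCODE annotation.

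RPKM were analysed as log2(RPKM + 1) with limma 3.58.1 in R 4.3.3 (4 group means over all 12 samples, trended eBayes, Benjamini-Hochberg over 10799 genes). The filter was a mean of 1 RPKM in at least 1 group. The script was tested on simulated data. Samples were grouped by the titles in the labels. Alternatives were a pseudocount of 0.1, other filters, quantile normalization, median centring, the longest row, the replicate block, leave-one-out fits for each of the 12 samples, untrended eBayes, and a fit restricted to the groups of a comparison. The members, lists and motifs were chosen with earlier results of these data known. Named genes were the 7, the 3 nearest patterns of each, Arntl, and up to 3 genes per list with an adjusted p under 0.05 between genotypes at CT12 and the largest differences. Other genes (the remaining markers, genes sharing exons, Cyp1a2 and examples of lists) were named as context after their values were seen. The list of receptor chaperones and coregulators is not reported here.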

Additional observations from a re-analysis of the deposited data

Results flagged for a closer look

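The KO minus WT difference of Por changed between the times, from -0.36 at CT0 to -1.85 at CT12 on the log2 scale, and the test of that change, the interaction, gave -1.49 (SE 0.29, limma adjusted p = 0.0267). All 3 KO livers were below all 3 WT livers at CT12, and the genotypes overlapped at CT0. The call was lost under 10 of 20 alternatives, while its direction was the same in all 20.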

How the results depend on the processing

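Of the 7 genes, the count between genotypes at CT0 went from 0 to 1 with the replicate block (Nr1i3, adjusted p = 0.0369), and the count at CT12 went from 2 to 4 with the longest row of each gene (Ahr and Arnt added). Over time in KO the count went from 1 to 2 with the longest row (Rxra added) and to 0 when only the samples of the groups compared were fitted. The interaction count went from 1 to 0 without a filter on low values and with the replicate block (Por, adjusted p = 0.0590). The transcript rows called for the interaction went from 5 to 2 without a filter. Leaving out each sample in turn gave 0 called in every fit between genotypes at CT0, 1 to 3 at CT12, 2 to 4 over time in WT, 1 in every fit over time in KO and 0 to 1 for the interaction. The count of 1 at CT12 came without WT CT12 replicate 3, and that of 2 in WT without WT CT0 replicate 1 or 3 or WT CT12 replicate 1 or 3.

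The direction reversed for Arnt between genotypes at CT0 (longest row 0.16; leaving out samples, -0.36 to 0.011, the latter without KO CT0 replicate 3) and for the Nr1i3 interaction (leaving out samples, -0.33 to 0.039, positive at 0.039 without WT CT0 replicate 1 and at 0.0090 without KO CT12 replicate 1), both far from the threshold. The cause was not tested. Replicate numbers did not pair the samples: deviations of same-numbered samples correlated with a mean r of 0.00825 over 18 pairs (-0.0665 to 0.139), and 5 of 12 samples correlated best with their own number. With the block the CT12 genotype difference of Alas1 also passed (adjusted p = 0.0240). Depth limits Arnt most, at 44 to 114 reads in its main row.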
